A study of Mus musculus with 28 samples.

Results

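The genes described here are the pore-forming and auxiliary subunits of voltage-gated sodium and calcium channels. They were chosen by symbol: genes named Scn followed by digits and a or b, and genes whose names begin with Cacna1, Cacna2d, Cacnb or Cacng. The rule used no measured value. The 37 genes described, of 19421 in the table, all passed the filter on low values. They comprised 9 sodium channel α subunits, 3 sodium channel β subunits, 9 calcium channel α1 subunits, 4 α2δ subunits, 4 calcium channel β subunits and 8 γ subunits.

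The libraries came from 7 mouse embryonic stem cell (ESC) lines, all made in A2Lox cells, that carried a doxycycline (Dox) inducible cassette ending in the fluorescent reporter mVenus. The cassette held Atoh1 (iAtoh1), Gfi1 (iGfi1), Pou4f3 (iPou4f3), Gfi1 with Atoh1 (iG+A), Gfi1 with Pou4f3 (iG+P), Pou4f3 with Atoh1 (iP+A) or all 3 (iGPA). Embryoid bodies (EBs, aggregates in which ESCs differentiate) were exposed to 2 µg/ml Dox for 48 h and mVenus+ cells were sorted at day 6, whereas the No Dox libraries came from whole, unsorted EBs of the same line at day 6. Each of the 14 groups had 2 libraries, described as different clones of a line, and the question was which channel genes each factor or combination changed. Treatment and sorting went together in every line and cannot be told apart, and in bulk RNA fewer cells of a type and less RNA per cell cannot be told apart either.

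Voltage-gated channels open when the membrane depolarises. Sodium channel α subunits carry the fast inward current of action potentials, and their β subunits alter gating and surface delivery. Calcium channel α1 subunits form the pores of L-type, P/Q-type, N-type, R-type and low-threshold T-type currents, while α2δ and β subunits aid trafficking and set current size. The γ family includes muscle calcium channel subunits and the TARPs, which accompany AMPA-type glutamate receptors. In inner ear hair cells calcium entry through such channels triggers release at the ribbon synapse, and immature hair cells also carry sodium currents.

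The normalized counts summed to 36.8 to 39.1 M per library with Dox and 38.6 to 40.4 M without. The spacing of low values put the depth at about 30.3 to 48.0 M reads, an approximate figure, as 72.4% to 79.6% of the values up to 20 came out within 0.05 of a whole read. In lines carrying the respective cassette, Dox libraries held 12816 to 21242 normalized counts of Atoh1, 8119 to 12487 of Gfi1 and 4694 to 19883 of Pou4f3, against no more than 120.1 in any library without Dox. Of 12 neuronal markers, 5, 0, 3, 5, 3, 12 and 10 rose in iAtoh1, iGfi1, iPou4f3, iG+A, iG+P, iP+A and iGPA cells, and 1 fell in each of iGfi1, iG+A, iG+P and iGPA cells. The summed level of 8 fibroblast markers was lower in both Dox libraries than in both No Dox libraries of each line.

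RefSeq promoter sequences, covering 250 bases before to 50 after a gene's start in GRCm38.p6, were on hand for 29 of the 37 genes (39 promoters). None was listed for Cacna1a, Cacna1g, Cacna1h, Cacna2d4, Cacng1, Cacng4, Scn3a or Scn3b. Both strands were searched for CAGCTG, a form of the E-box bound by Atoh1-type factors, AAATCA, a core of Gfi1 sites, and ATTAAT, part of POU factor sites, no matches to which overlap in the promoters shown. CAGCTG was in 12 of the 39 channel promoters (30.8%) and in 16.3% of all 32851 promoters of that length, AAATCA in 7 (17.9%) and 14%, and ATTAAT in 2 (5.1%) and 4.7%. Cacna2d1 and Cacna2d2 are shown because their transcripts changed in opposite directions. Scn10a is shown because it rose in 2 lines with Gfi1, both of which also hold Atoh1, and Cacna1b because it rose in 3 combinations with Atoh1. Scn4b, which rose in 4 lines with Gfi1, and Scn4a, which rose in 4 lines with Atoh1, are not shown. Their promoters held none of the 3 motifs. Those shown were chosen after their values were seen, and capitals mark matches to the 3 motifs.
Cacna2d1, chr5:15934441-15934740, plus strand: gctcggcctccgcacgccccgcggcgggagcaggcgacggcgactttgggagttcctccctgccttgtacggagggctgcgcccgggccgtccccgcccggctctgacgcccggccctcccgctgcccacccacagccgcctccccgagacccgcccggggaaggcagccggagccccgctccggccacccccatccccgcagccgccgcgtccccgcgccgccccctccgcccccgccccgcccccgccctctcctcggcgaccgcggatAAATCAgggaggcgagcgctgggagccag
Cacna2d2, chr9:107399630-107399929, plus strand: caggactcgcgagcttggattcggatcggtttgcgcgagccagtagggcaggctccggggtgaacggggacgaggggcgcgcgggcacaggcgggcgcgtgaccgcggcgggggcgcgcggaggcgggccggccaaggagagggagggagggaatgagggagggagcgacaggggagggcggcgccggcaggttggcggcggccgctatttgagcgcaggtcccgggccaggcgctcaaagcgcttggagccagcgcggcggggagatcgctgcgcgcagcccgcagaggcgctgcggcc
Scn10a, chr9:119718983-119719282, minus strand: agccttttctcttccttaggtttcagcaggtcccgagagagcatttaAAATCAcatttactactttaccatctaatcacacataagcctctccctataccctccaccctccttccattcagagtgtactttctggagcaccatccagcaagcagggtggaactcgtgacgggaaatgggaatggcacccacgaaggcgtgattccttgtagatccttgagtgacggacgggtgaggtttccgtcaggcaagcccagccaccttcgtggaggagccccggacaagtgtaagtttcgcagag
Cacna1b, chr2:24763103-24763402, minus strand: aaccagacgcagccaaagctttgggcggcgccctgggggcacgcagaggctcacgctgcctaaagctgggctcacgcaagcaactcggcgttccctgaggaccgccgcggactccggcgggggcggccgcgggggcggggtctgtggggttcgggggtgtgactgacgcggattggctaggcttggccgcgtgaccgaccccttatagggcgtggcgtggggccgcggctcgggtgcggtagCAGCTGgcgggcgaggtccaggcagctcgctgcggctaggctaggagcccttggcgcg
The AAATCA match in Cacna2d1 began at position 22 from the start of the gene and that in Scn10a at −203. The CAGCTG match in Cacna1b began at −8, and Cacna2d2 held none of the 3 motifs in this window. A match gives the letters only and does not show that a factor binds there.

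Each combination of factors raised more channel genes than any single factor did. A gene is said to have risen or fallen where limma gave an adjusted p under 0.05 and a log2 fold change past 1.5 in either direction, on the scale of log2(normalized count + 1). In iAtoh1 cells 3 of the 37 genes rose and 0 fell, beside 2.89% and 2.52% of all 16837 genes tested. In iGfi1 cells 1 rose and 1 fell (2.15% and 2.67% of all genes), and in iPou4f3 cells 1 rose and 0 fell (1.47% and 0.606%). Among pairs of factors, 10 rose and 1 fell in iG+A (7.35% and 4.95%), 8 rose and 3 fell in iG+P (5.16% and 5.36%), and 9 rose and 0 fell in iP+A cells (4.70% and 2.58%). With all 3 factors 11 rose and 1 fell (8.65% and 5.31%).

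In the 4 combinations 21.6% to 29.7% of the channel genes rose, several times the share among all genes, while the shares in iGfi1 and iPou4f3 cells (2.70% each) lay near that background. In the 3 lines in which 0 fell, 3, 2 and 3 genes had a negative value at an unadjusted p under 0.05 in limma (iAtoh1, iPou4f3 and iP+A). Below, a call is said to be lost where it missed either threshold under another setting or without 1 library, and the log2 value there follows in parentheses. The median log2 fold change of the 37 genes was 0.44 in iG+A cells and between −0.22 and 0.31 in the other lines, beside medians of all genes between −0.03 and 0.02. Over the 7 lines, 21 genes (56.8%) rose or fell in at least 1 line, beside 25.0% of all genes, and 16 in none. Of the 259 tests of a channel gene in a line, 49 (18.9%) passed, beside 8.05% over all genes.

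**Figure D1:**
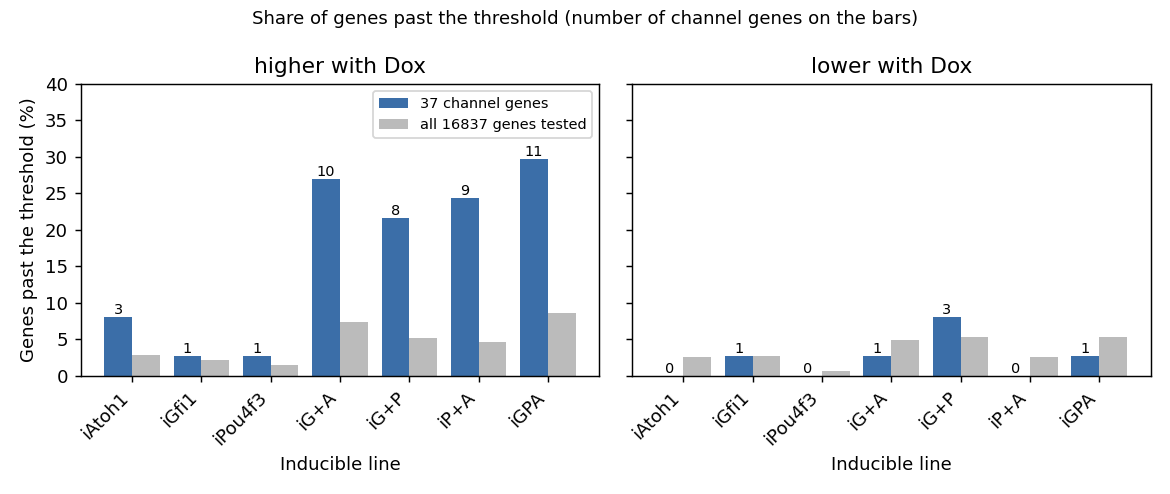
Percent of the 37 channel genes (blue) and of all 16837 genes tested (grey) past the threshold in each of the 7 lines, higher with Dox at left and lower at right, with the number of channel genes above each blue bar. The 4 combinations raised 8 to 11 channel genes, the single factors 1 to 3.

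**Figure D2:**
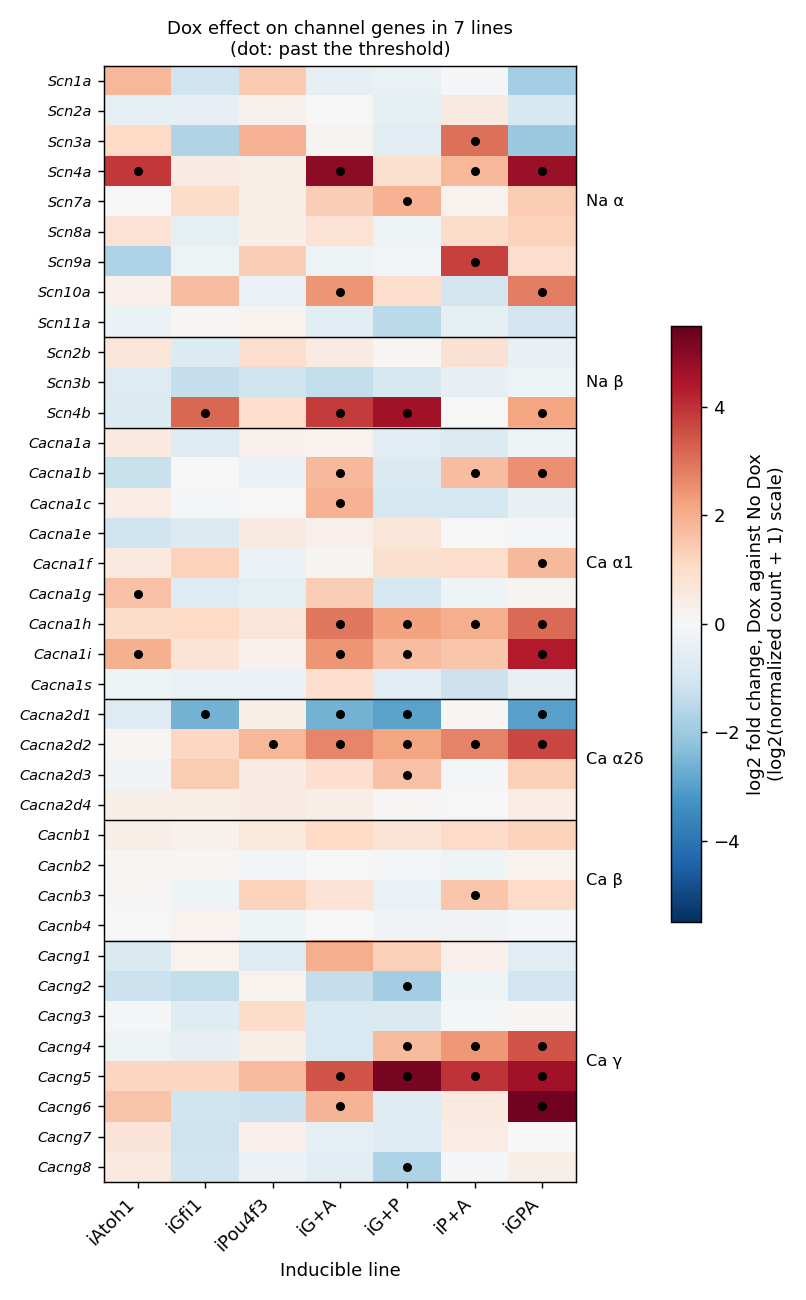
Log2 fold change of Dox against No Dox for each channel gene (rows, by family) in each line (columns), on the log2(normalized count + 1) scale, red higher and blue lower with Dox. Dots mark values past the threshold. Cacna2d1 is the gene that fell in 4 lines, and Cacna2d2 the gene that rose in 5.

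Among sodium channel α subunits, Scn4a (Nav1.4, the channel of skeletal muscle; Entrez 110880, chromosome 11, 106179906 to 106214602 in NCBIM37, as for all genes here) passed the test as higher in each of the 4 lines with Atoh1 and in no line without it. In iAtoh1 cells it had 29.3 and 31.0 normalized counts without Dox and 412 and 525 with Dox, in iG+A cells 10.4 and 16.8 without Dox and 505 and 369.7 with Dox, and in iGPA cells 27.1 and 5.9 without Dox and 417 and 335 with Dox. Both Dox libraries of these lines stood far above both controls. The log2 fold changes were 3.90 (standard error 0.47, adjusted p = 1.13e-05), 4.92 (standard error 0.47, adjusted p = 2.34e-07) and 4.75 (standard error 0.47, adjusted p = 2.10e-07). The last was 5.76 or 3.74 with No Dox replicate 1 or 2 left out. The rise was smaller in iP+A cells, from 34.6 and 29.4 to 122 and 108 normalized counts (log2 fold change 1.81, standard error 0.47, adjusted p = 0.00813), and that call was lost without iP+A Dox replicate 1 (1.72) or without iP+A No Dox replicate 2 (1.70). Its difference from iGPA cells passed (2.94), but that from iAtoh1 cells did not in the main fit. The latter passed with the replicate number as a block (−2.09), in a fit of its own groups alone (−2.09) or with a pseudocount of 5 (−2.04). In iGfi1, iPou4f3 and iG+P cells the log2 fold changes were 0.44, 0.34 and 0.90. Adding Atoh1 to Gfi1 changed the Dox effect by 4.48 (standard error 0.66, adjusted p = 1.42e-04) and adding it to Gfi1 with Pou4f3 by 3.85 (standard error 0.66, adjusted p = 7.11e-04), whereas adding it to Pou4f3 gave 1.47 (adjusted p = 0.302). The difference beside Gfi1 with Pou4f3 was 4.86 or 2.84 without iGPA No Dox replicate 1 or 2.

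Of 14 striated muscle markers, 2, 3, 1 and 3 rose in iAtoh1, iG+A, iP+A and iGPA cells, the lines in which Scn4a rose, and 1, 0 and 2 in iGfi1, iPou4f3 and iG+P cells, while 2, 1 and 3 fell in iGfi1, iG+A and iG+P cells. Ttn, the giant elastic protein of sarcomeres, rose by 3.01, 2.54, 3.63 and 5.51 on the log2 scale in the first 4, and also in iG+P cells (2.06), where Scn4a did not pass. Myod1, which starts the skeletal muscle programme, had 43.6 and 76.9 normalized counts in iG+A cells with Dox but at most 8.06 in any other Dox library, and was at 0 in 3 of them. The summed level of the list ran from 4025 to 13718 without Dox and from 3146 to 15347 with it, and the part of muscle transcripts in the Scn4a values was not tested. Cacna1s and Cacng1, the pore and γ subunit of the skeletal muscle calcium channel, did not pass the test in any line. Without 1 library, however, Cacng1, at 9.28 and 0 normalized counts without Dox and 11.7 and 12.2 with Dox in iG+A cells (2.01), passed as higher without iG+A No Dox replicate 1 (3.69), and Cacna1s, with 684 and 179 without Dox and 170.3 and 136 with Dox in iP+A cells (−1.20), passed as lower without iP+A No Dox replicate 2 (−2.16).

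Scn10a (Nav1.8, known from nociceptors; Entrez 20264, chromosome 9, 119517584 to 119603478) rose in iG+A and iGPA cells. It had 18.4 and 7.91 normalized counts without Dox and 65.1 and 74.5 with Dox in iG+A cells (log2 fold change 2.43, standard error 0.77, adjusted p = 0.0175), and this call was lost without iG+A Dox replicate 1 (2.52) or 2 (2.33) or without iG+A No Dox replicate 2 (1.87). In iGPA cells the libraries held 6.6 and 11.8 without Dox and 55.3 and 81.9 with it (log2 fold change 2.79, standard error 0.77, adjusted p = 0.00639), a call lost without iGPA Dox replicate 2 (2.51) or without iGPA No Dox replicate 1 (2.42). In neither line did the Dox and No Dox libraries overlap. In the other lines with Gfi1 the values were 1.69 in iGfi1 and 0.98 in iG+P cells, and in the 3 lines without Gfi1 they ran from −1.01 to 0.26. The Dox effect in iGPA cells exceeded that in iP+A cells by 3.81 (standard error 1.09, adjusted p = 0.021), a call lost without iGPA Dox replicate 2 (3.53), without iGPA No Dox replicate 1 (3.44), without iP+A Dox replicate 1 (3.13) or without iP+A No Dox replicate 1 (3.23). The other comparisons in which Gfi1 was added, to Atoh1 (2.16, adjusted p = 0.200) and to Pou4f3, did not pass. The neighbour Scn11a (Nav1.9) did not pass in any line (−1.48 to 0.21), with 6.15 to 28.6 normalized counts over all libraries. It passed as lower in iG+P cells with a pseudocount of 0.5 (−1.54), without iG+P Dox replicate 2 (−1.63) or without iG+P No Dox replicate 2 (−1.76), and in iGPA cells without iGPA Dox replicate 2 (−1.78).

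Scn3a (Nav1.3, prominent in embryonic neurons; Entrez 20269, chromosome 2, 65295175 to 65405684) and Scn9a (Nav1.7, a channel of peripheral sensory neurons; Entrez 20274, chromosome 2, 66318137 to 66473009) passed the test in iP+A cells alone. Scn3a had 15.1 and 12.0 normalized counts without Dox and 122 and 112 with Dox (log2 fold change 3.03, standard error 0.82, adjusted p = 0.0113), and Scn9a 6.85 and 1.38 without Dox and 62.3 and 54.0 with Dox (log2 fold change 3.77, standard error 1.20, adjusted p = 0.0274). Both Dox libraries of iP+A exceeded those of each other line for both genes. The Scn3a call was lost without iP+A Dox replicate 1 (2.97) or without iP+A No Dox replicate 2 (2.87), and that on Scn9a without iP+A Dox replicate 1 (3.67) or 2 (3.87) or without iP+A No Dox replicate 2 (2.91). Over all alternatives the Scn9a value ran from 2.86 to 4.63. In iPou4f3 cells Scn3a had 33.9 and 10.1 normalized counts without Dox and 55.7 and 94.7 with Dox, a log2 fold change of 1.91 that did not pass (adjusted p = 0.221). The Dox effect on Scn3a in iP+A cells was not shown to differ from that in iPou4f3 cells, at 1.12 (standard error 1.16, adjusted p = 0.731), nor from that in iAtoh1 cells, at 1.95 (standard error 1.16, adjusted p = 0.416). For Scn9a these differences were 2.42 (standard error 1.70, adjusted p = 0.576) and 5.49 (standard error 1.70, adjusted p = 0.0691), and did not pass either, although the latter did in a fit of its own groups alone (5.49), with a pseudocount of 5 (3.42) or with the replicate number as a block (5.49). Scn3a passed as lower in iG+P cells (−0.58) without iG+P Dox replicate 2 (−2.24).

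In iGPA cells Scn3a had 16.8 and 20.7 normalized counts without Dox and 3.27 and 4.38 with Dox, both Dox libraries under both controls (log2 fold change −2.04, standard error 0.82, adjusted p = 0.0503). The Dox effect in iGPA cells on Scn3a differed from that in iP+A cells by −5.06 (standard error 1.16, adjusted p = 0.00519), a value that ran from −5.23 to −4.15 over the alternatives. For Scn9a that difference was −2.79 with a 95% interval of −6.35 to 0.77, so a difference in Scn9a was not shown. With the replicate number as a block, Scn3a (−2.04, adjusted p = 0.0294) and Scn1a (−1.87, adjusted p = 0.0342) passed as lower in iGPA cells, which brought the number of genes that fell there from 1 to 3. Both also did so in a fit of their own groups alone and after quantile normalization. The summed level of the neuronal markers was 29992 and 23819.6 in iP+A cells with Dox, 8905 and 8941 in iGPA cells, and 1024 to 4356 in the other Dox libraries. Nefm, a neurofilament, was the only one of the 12 at 0 in a library (1 iGfi1 library with Dox), and the part of neuronal cells in these values was not tested.

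**Figure D3:**
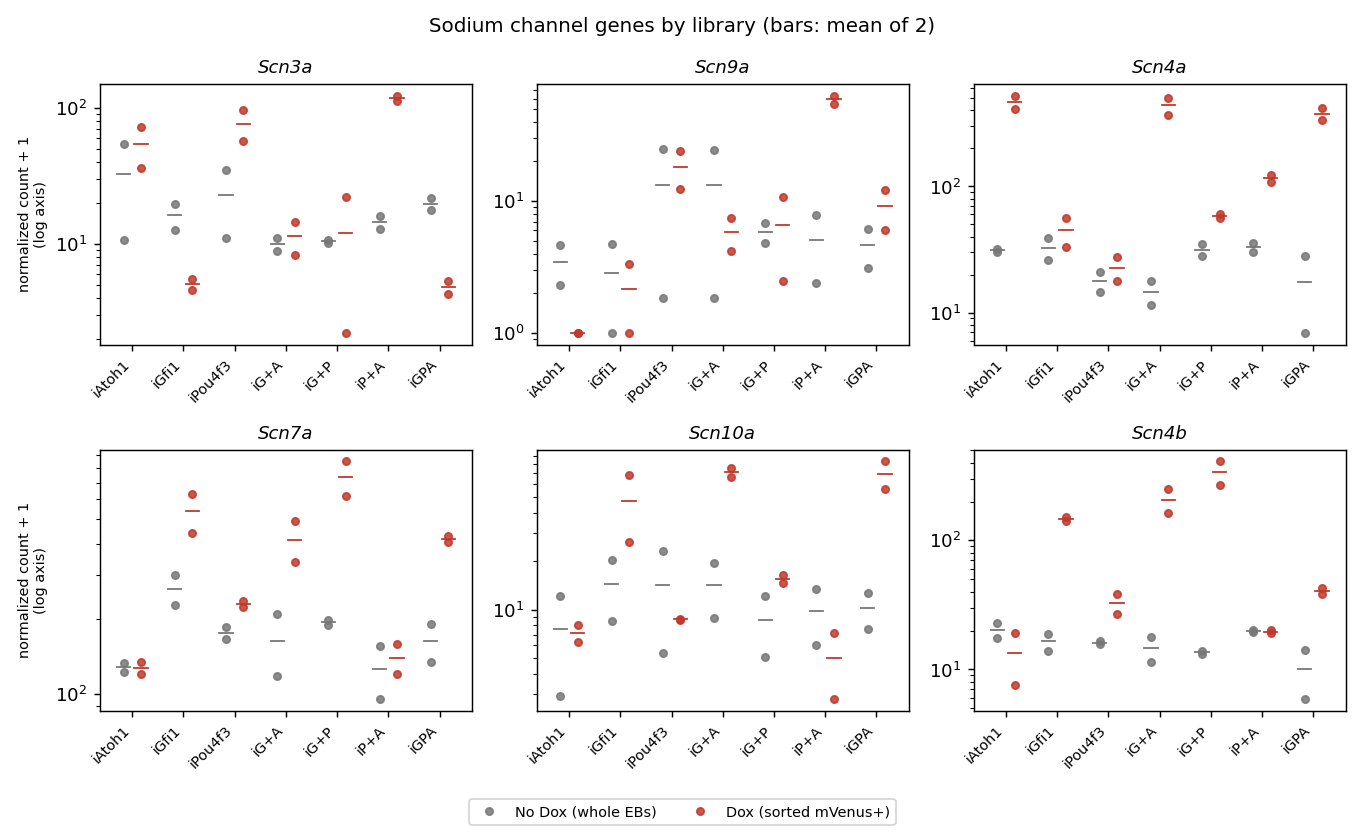
Normalized count + 1 (log axis) of 6 sodium channel genes in each library, No Dox in grey and Dox in red, by line, with a bar at the mean of 2 libraries. Scn3a and Scn9a are highest in iP+A with Dox, Scn4a in iAtoh1, iG+A and iGPA with Dox, and Scn4b in iG+P with Dox.

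Scn7a (the sodium-sensing channel Nax, known from glia; Entrez 20272, chromosome 2, 66511482 to 66622971) rose in iG+P cells, from 197 and 188 to 617 and 850.1 normalized counts (log2 fold change 1.90, standard error 0.29, adjusted p = 5.15e-05). In the other lines with Gfi1 its Dox libraries also lay above the controls, but under the fold threshold, at 1.02 in iGfi1, 1.37 in iG+A and 1.38 in iGPA cells. The iG+A value passed without iG+A Dox replicate 2 (1.64) or without iG+A No Dox replicate 2 (1.78), and the iGPA value without iGPA No Dox replicate 2 (1.63). In lines without Gfi1 the values were −0.01 to 0.38. Of 6 glial markers, 2 rose in iG+P cells, Gfap and Sox10, with summed levels of 482 and 339 without Dox and 491 and 339 with it. Scn8a (Nav1.6, a channel of axon initial segments) had the highest level per length of the 9 α subunits in untreated EBs, a median of 33.2 normalized counts per kb of exon. It made up 32.7% to 51.0% of the summed level per kb of the 9 genes, followed by Scn7a (18.4% to 42.5%) and Scn2a (6.30% to 24.1%). With Dox its largest value was 1.29 (standard error 0.41, adjusted p = 0.0155), in iGPA cells, under the fold threshold, which it passed without iGPA Dox replicate 2 (1.54), and the iG+A value (0.81) passed without iG+A Dox replicate 1 (1.67). Scn1a (Nav1.1) and Scn2a (Nav1.2) of central neurons passed in no line, with values of −1.87 to 1.83 and −0.89 to 0.49.

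Of the sodium channel β subunits, Scn4b (β4, which gives resurgent current in some neurons; Entrez 399548, chromosome 9, 44946520 to 44962235) passed the test as higher in all 4 lines with Gfi1 and in none of the others. It had 18.0 and 13.01 normalized counts without Dox and 139 and 150.5 with Dox in iGfi1 cells, 10.4 and 16.8 without Dox and 163 and 250.1 with Dox in iG+A cells and 12.3 and 13.03 without Dox and 408 and 269 with Dox in iG+P cells. In iGPA cells the Dox libraries held only 42.0 and 37.3, against 13.1 and 4.91 without Dox. In none of the 4 lines did the groups overlap, and the log2 fold changes were 3.16, 3.83, 4.61 and 2.15 (adjusted p = 5.67e-05, 1.73e-06, 2.22e-07 and 5.15e-04). The iGPA value was 2.78 or 1.52 with No Dox replicate 1 or 2 left out. In iAtoh1, iPou4f3 and iP+A cells the log2 fold changes were −0.73, 0.99 and −0.01.

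The 3 comparisons in which Gfi1 was added each passed for Scn4b: to Atoh1 by 4.56 (standard error 0.61, adjusted p = 6.51e-05), to Pou4f3 by 3.62 (standard error 0.61, adjusted p = 4.93e-04) and to both by 2.17 (standard error 0.61, adjusted p = 0.0194). The first was 5.23 or 3.89 without iAtoh1 Dox replicate 1 or 2, and the last was lost in a fit of its own groups alone (2.17), without iGPA Dox replicate 1 (2.08), without iGPA No Dox replicate 2 (1.54) or without iP+A Dox replicate 1 (2.13). Adding Atoh1 to Gfi1 with Pou4f3 changed the Dox effect by −2.45 (standard error 0.61, adjusted p = 0.0111), a call lost without iGPA No Dox replicate 1 (−1.83). Scn2b (β2, −0.77 to 0.95) and Scn3b (β3, −1.35 to −0.27) passed in no line. Scn3b passed as lower in iG+A cells (−1.35) after quantile normalization (−1.52), without iG+A Dox replicate 2 (−2.05) or without iG+A No Dox replicate 1 (−1.73), and in iGfi1 cells (−1.31) without iGfi1 Dox replicate 2 (−1.72).

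Among calcium channel pores, Cacna1h (Cav3.2, a T-type channel that opens at low voltage; Entrez 58226, chromosome 17, 25511230 to 25570728) had the highest median share per kb in untreated EBs and rose in all 4 combinations. Its Dox libraries lay above both controls in each of the 7 lines. It had 820.1 and 929 normalized counts without Dox and 7249 and 5952 with Dox in iG+A cells and 636 and 685 without Dox and 5568 and 5861 with Dox in iGPA cells. The log2 fold changes were 2.91 (standard error 0.12, adjusted p = 1.21e-11) in iG+A, 2.22 (standard error 0.12, adjusted p = 3.30e-10) in iG+P, 2.00 (standard error 0.12, adjusted p = 1.21e-09) in iP+A and 3.11 (standard error 0.12, adjusted p = 2.97e-12) in iGPA cells. Single factors gave 1.02, 1.11 and 0.66, each with an adjusted p under 0.05 but under the fold threshold. Per kb of exon it was 22.4% and 28.2% of the 9 α1 genes' summed level in the untreated iGPA libraries and 69.4% and 70.2% in those with Dox.

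The other T-type genes were Cacna1i (Cav3.3; Entrez 239556, chromosome 15, 80117668 to 80228709) and Cacna1g (Cav3.1; Entrez 12291, chromosome 11, 94269705 to 94335414). Cacna1i had 12.2 and 10.8 normalized counts without Dox and 249.9 and 254 with Dox in iGPA cells (log2 fold change 4.34, standard error 0.56, adjusted p = 4.75e-06), the largest rise among the α1 genes. It also rose in iG+A cells, from 16.2 and 10.1 to 62.8 and 86.6 (log2 fold change 2.44, standard error 0.56, adjusted p = 0.00189), and the groups were apart in both lines. Smaller rises in iAtoh1 (log2 fold change 1.94, standard error 0.56, adjusted p = 0.0171) and iG+P cells (log2 fold change 1.70, standard error 0.56, adjusted p = 0.0239) depended on single libraries. The first was lost in a fit of its own groups alone (1.94), without iAtoh1 Dox replicate 1 (1.55) or without iAtoh1 No Dox replicate 1 (1.41), and the other without iG+P Dox replicate 1 (1.22) or without iG+P No Dox replicate 1 (1.74) or 2 (1.66). In iP+A cells it reached 1.51 (standard error 0.56, adjusted p = 0.0542), from controls of 34.6 and 8.28 to 67.0 and 38.5, and it passed with the replicate number as a block (1.51) or without iP+A No Dox replicate 1 (2.48), with adjusted p = 0.0269 and 0.00477. Cacna1g rose in iAtoh1 cells, from 281 and 304 to 834 and 978 (log2 fold change 1.62, standard error 0.25, adjusted p = 1.74e-04), and reached 1.35 in iG+A cells, where it passed without iG+A Dox replicate 1 (1.66) or without iG+A No Dox replicate 2 (1.54). In the other lines its values were between −0.98 and 0.17.

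Cacna1b (Cav2.2, the N-type channel of presynaptic terminals; Entrez 12287, chromosome 2, 24459407 to 24618672) rose in the 3 combinations that hold Atoh1. It had 75.7 and 118 normalized counts without Dox and 287 and 372 with Dox in iG+A cells, 100.1 and 213 without Dox and 549.7 and 423 with Dox in iP+A cells and 112 and 107 without Dox and 592 and 656 with Dox in iGPA cells. The groups did not overlap in any of these lines, and the log2 fold changes were 1.78 (standard error 0.33, adjusted p = 3.44e-04), 1.71 (standard error 0.33, adjusted p = 9.07e-04) and 2.50 (standard error 0.33, adjusted p = 7.23e-06). The iG+A call was lost without iG+A No Dox replicate 1 (1.46), and the iP+A call in a fit of its own groups alone (1.71) or without iP+A No Dox replicate 1 (1.17). Atoh1 alone gave a value in the other direction, −1.24 (standard error 0.33, adjusted p = 0.0113), under the fold threshold, and the Dox effects in iG+A and iP+A cells lay above that in iAtoh1 cells, by 3.02 (standard error 0.47, adjusted p = 2.59e-04) and 2.96 (standard error 0.47, adjusted p = 6.63e-04). Neuronal markers rose in 5, 12 and 10 of 12 cases in iG+A, iP+A and iGPA cells, the lines in which Cacna1b rose, and in 5, 0, 3 and 3 in iAtoh1, iGfi1, iPou4f3 and iG+P cells, and the part of neuronal cells in the Cacna1b values was not tested.

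Cacna1c (Cav1.2, the L-type channel of heart, muscle and neurons; Entrez 12288, chromosome 6, 118542314 to 119146249) passed the test as higher in iG+A cells alone, from 358 and 376 to 1782 and 1101 normalized counts (log2 fold change 1.93, standard error 0.26, adjusted p = 1.46e-05). In iG+P, iP+A and iGPA cells both Dox libraries were below both controls, with values of −0.95, −0.98 and −0.40. The iG+P and iP+A values had an adjusted p of 0.00877 and 0.0108 in limma but were under the fold threshold. The iGPA value missed both thresholds (adjusted p = 0.232). Adding Pou4f3 to Gfi1 with Atoh1 changed the Dox effect on it by −2.33 (standard error 0.37, adjusted p = 9.22e-04). Cacna1f (Cav1.4, the photoreceptor L-type channel) rose in iGPA cells at very low counts, 5.07 and 1.5 without Dox and 18.8 and 7.92 with Dox (log2 fold change 1.77, standard error 0.69, adjusted p = 0.0438), a call lost in a fit of its own groups alone (1.77), with a pseudocount of 5 (1.12), without iGPA Dox replicate 1 (1.20) or without iGPA No Dox replicate 2 (1.13). Its values ran from 1.12 to 2.41 over the alternatives. Cacna1a (Cav2.1, P/Q-type, −0.77 to 0.54), Cacna1e (Cav2.3, R-type, −1.09 to 0.69) and Cacna1s (Cav1.1, −1.20 to 0.91) passed in no line. Cacna1e passed as lower in iAtoh1 cells (−1.09) without iAtoh1 No Dox replicate 1 (−1.63). Cacna1s held 684 normalized counts in 1 untreated iP+A library and 89.0 to 220.2 in the other 13 untreated libraries.

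**Figure D4:**
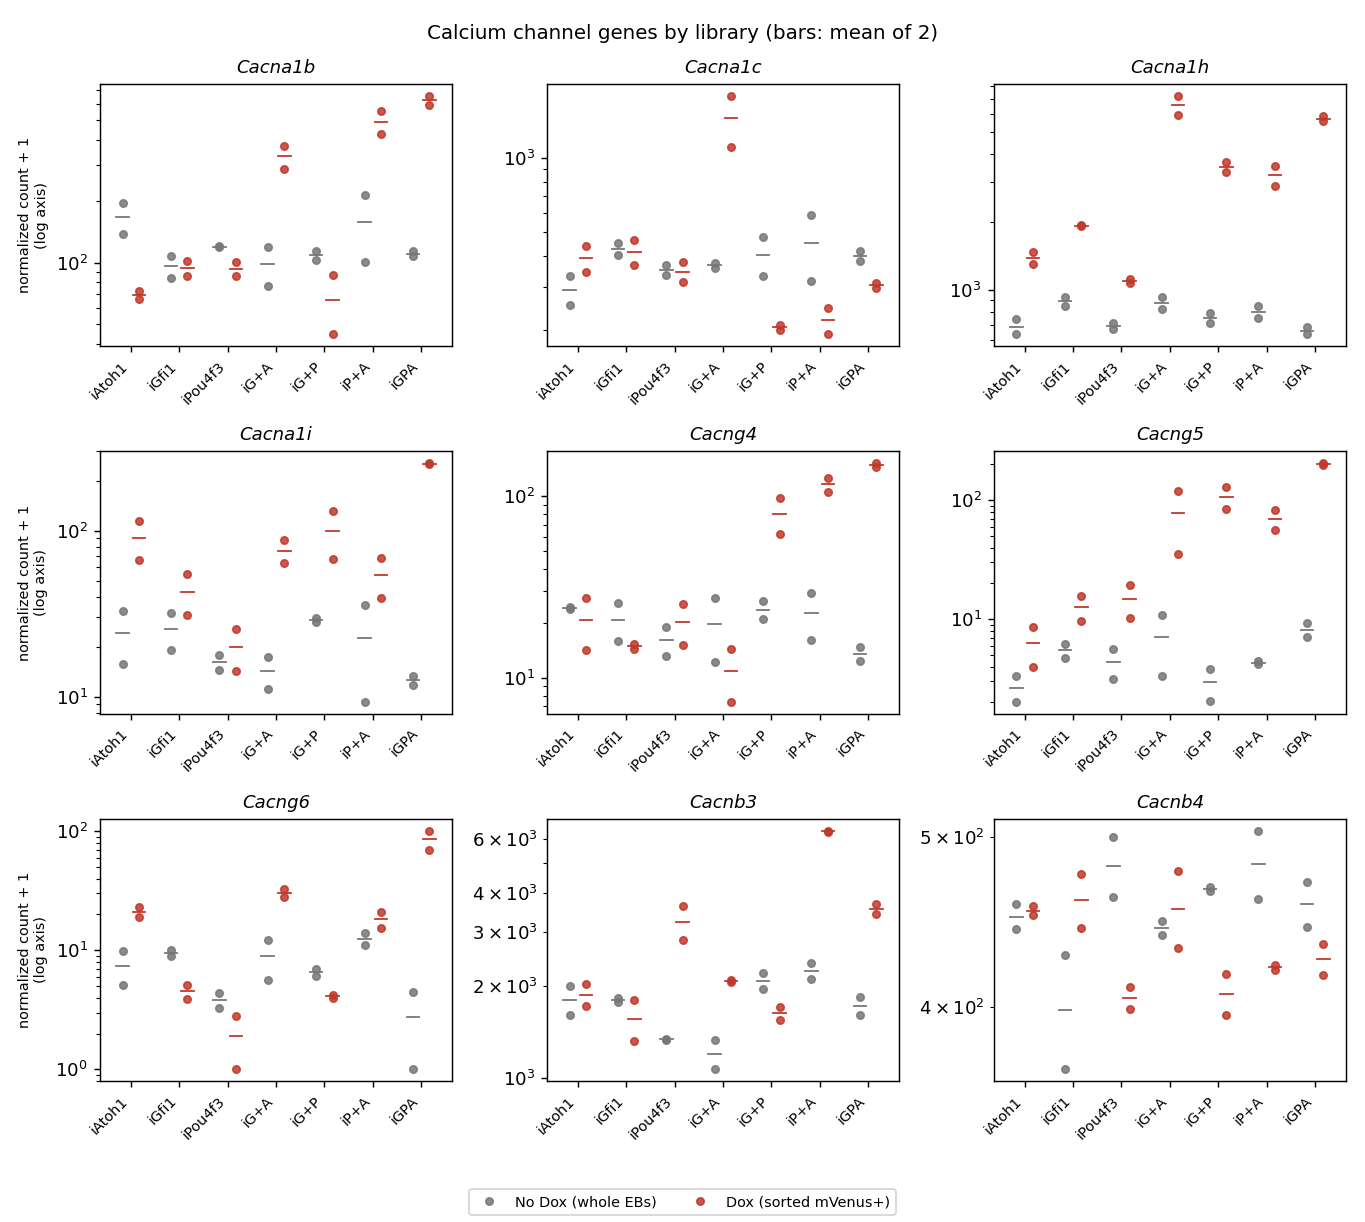
Normalized count + 1 (log axis, each panel with its own range) of 9 calcium channel genes in each library, No Dox in grey and Dox in red, by line, with a bar at the mean of 2 libraries. Cacna1h with Dox lies above No Dox in all 7 lines, Cacna1c only in iG+A stands far above its controls, and Cacnb4 spans 367 to 504 normalized counts over all libraries.

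Among the α2δ subunits, a family that includes the binding sites of gabapentin-type drugs, the most abundant gene fell and the next rose. Cacna2d1 (α2δ-1; Entrez 12293, chromosome 5, 15440509 to 15880329) fell in all 4 lines with Gfi1. It had 1945 and 2222 normalized counts without Dox and 305 and 377 with Dox in iGfi1 cells, 2185 and 1583 without Dox and 412 and 222 with Dox in iG+A cells, and 1725 and 1650.0 without Dox and 249 and 192 with Dox in iG+P cells. In iGPA cells the libraries held 2133 and 2518 without Dox and 264 and 322 with it. The Dox libraries of these lines were between 192 and 412 and all 14 untreated libraries between 1327 and 2518 normalized counts. The log2 fold changes were −2.61 (standard error 0.25, adjusted p = 1.68e-06), −2.62 (standard error 0.25, adjusted p = 2.61e-07), −2.94 (standard error 0.25, adjusted p = 7.33e-08) and −2.99 (standard error 0.25, adjusted p = 3.02e-08).

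In the lines without Gfi1, Cacna2d1 gave −0.73 (standard error 0.25, adjusted p = 0.0426) in iAtoh1 cells, 0.31 in iPou4f3 cells (95% interval −0.22 to 0.83) and 0.06 in iP+A cells (−0.46 to 0.59). Adding Gfi1 changed the Dox effect in each of the 3 comparisons, by −1.89 (standard error 0.35, adjusted p = 0.00131) on Atoh1, −3.25 (standard error 0.35, adjusted p = 7.63e-06) on Pou4f3 and −3.05 (standard error 0.35, adjusted p = 1.60e-05) on both. The first of these was lost without iG+A Dox replicate 2 (−1.44). Adding Atoh1 or Pou4f3 to Gfi1 moved the value by −0.01 and −0.33, with 95% intervals of −0.75 to 0.74 and −1.08 to 0.41. Fibroblast markers also fell in the lines with Gfi1, 2 of 8 in iGfi1, 3 in iG+A, 5 in iG+P and 6 in iGPA cells, but 3 fell in iAtoh1 and 1 in iP+A cells as well, and 1 of them, Thy1, rose in iP+A and iGPA cells. Among lines with Gfi1 their summed level was 98556 and 83033 normalized counts without Dox and 30815 and 39225 with Dox in iGfi1, 106316 and 89393 against 33287 and 17210.2 in iG+A, 63756 and 67179 against 10238 and 11944 in iG+P, and 65612 and 87126 against 8552 and 9535 in iGPA cells. Among lines without Gfi1 it was 48437 and 77199 without and 29651 and 42780.0 with Dox in iAtoh1, 113276 and 79180.5 against 76257 and 44889.7 in iPou4f3, and 93834 and 67717 against 40977 and 33018 in iP+A cells. The level with Dox was below that without in every line, and lowest with Dox in iG+P and iGPA cells. None of the 8 was at 0 in any library, and the part of such cells in the fall of Cacna2d1 was not tested.

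Cacna2d2 (α2δ-2, a subunit of cerebellar neurons and hair cells; Entrez 56808, chromosome 9, 107301943 to 107431677) rose in iPou4f3 cells and in all 4 combinations. It had 470.3 and 614 normalized counts without Dox and 1588 and 2242 with Dox in iPou4f3 cells, 351 and 399 without Dox and 2605 and 2342 with Dox in iP+A cells, and 725 and 568 without Dox and 7886 and 8618 with Dox in iGPA cells. No Dox library of these lines overlapped with a Dox library. The log2 fold changes were 1.81 (standard error 0.18, adjusted p = 4.31e-06), 2.72 (standard error 0.18, adjusted p = 4.20e-09) and 3.68 (standard error 0.18, adjusted p = 4.60e-11), and those in iG+A and iG+P cells 2.70 and 2.17 (adjusted p = 3.22e-09 and 5.02e-08). The iPou4f3 call was lost in a fit of its own groups alone (1.81). Gfi1 alone gave 1.12 (adjusted p = 2.21e-04), under the fold threshold, and Atoh1 alone 0.12 (95% interval −0.26 to 0.50). Adding Atoh1 to Gfi1 with Pou4f3 changed the Dox effect by 1.51 (standard error 0.25, adjusted p = 5.94e-04), and this call was lost without iG+P Dox replicate 1 (1.30), without iG+P No Dox replicate 1 (1.42), without iGPA Dox replicate 2 (1.45) or without iGPA No Dox replicate 2 (1.33).

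Per kb of exon, Cacna2d1 held 49.1% to 77.1% of the summed level of the 4 α2δ genes in untreated EBs and Cacna2d2 16.7% to 39.3%. In the iGPA libraries with Dox the shares were 2.17% and 2.32% for Cacna2d1 and 86.2% and 89.9% for Cacna2d2. In iP+A cells with Dox, where Cacna2d2 rose but Cacna2d1 did not fall, Cacna2d1 held 32.7% and 36.0% and Cacna2d2 60.6% and 63.7%. In iGfi1 cells with Dox, where Cacna2d1 fell, Cacna2d1 held 9.67% and 12.5% and Cacna2d2 49.6% and 62.9%. Cacna2d3 (α2δ-3, involved in auditory and pain pathways; Entrez 12294, chromosome 14, 29718133 to 30535050) rose in iG+P cells, from 169.6 and 158 to 459.8 and 535 normalized counts (log2 fold change 1.59, standard error 0.32, adjusted p = 8.18e-04), a call lost after quantile normalization (1.46) or without iG+P Dox replicate 2 (1.48). It gave 1.39 in iGfi1, 0.93 in iG+A and 1.33 in iGPA cells, under the threshold, though the iGfi1 value passed without iGfi1 Dox replicate 2 (1.80) or without iGfi1 No Dox replicate 1 (1.55) and the iGPA value without iGPA Dox replicate 1 (1.69), and −0.18 to 0.47 in the lines without Gfi1. Cacna2d4 (α2δ-4, of photoreceptors) had 6.21 to 27.6 normalized counts over all libraries and passed in none of the lines.

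**Figure D5:**
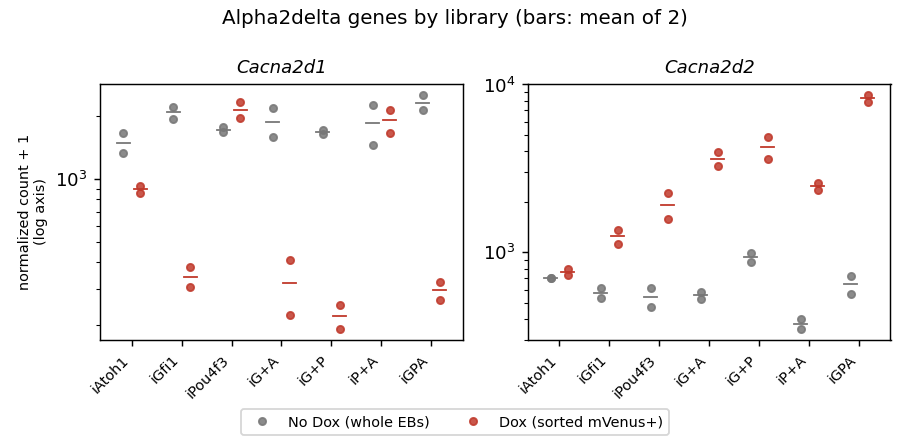
Normalized count + 1 (log axis) of Cacna2d1 (left) and Cacna2d2 (right) in each library, No Dox in grey and Dox in red, by line, with a bar at the mean of 2 libraries. Cacna2d1 with Dox lies far below its controls in iGfi1, iG+A, iG+P and iGPA, and Cacna2d2 reaches 7886 and 8618 normalized counts in iGPA.

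Of the 4 cytoplasmic β subunits of calcium channels, 1 passed the test, in 1 line. Cacnb3 (β3; Entrez 12297, chromosome 15, 98462651 to 98474961), the most abundant of the 4 per kb in untreated EBs (62.9% to 76.3% of their sum), rose in iP+A cells from 2102 and 2363 to 6315 and 6399 normalized counts (log2 fold change 1.51, standard error 0.15, adjusted p = 6.75e-07). That value lies just past the fold threshold, and the call was lost after quantile normalization (1.496) or without iP+A No Dox replicate 1 (1.43). In iPou4f3 and iGPA cells it gave 1.26 and 1.05 without overlap between groups, under the threshold. The Dox effect in iG+P cells differed from that in iPou4f3 cells by −1.61 (standard error 0.21, adjusted p = 5.71e-05), a call lost without iPou4f3 Dox replicate 1 (−1.42). Cacnb1 (β1, the skeletal muscle form among others) reached 1.25 in iGPA cells (adjusted p = 4.18e-05) and passed in no line. Cacnb2 (β2, the main cardiac form) and Cacnb4 (β4, of cerebellar neurons) varied little. Cacnb2 values ran from −0.23 to 0.18 and those of Cacnb4 from −0.25 to 0.21, and in iGPA cells the 95% intervals were −0.11 to 0.47 and −0.33 to 0.12.

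Among γ subunits, Cacng5 (γ5, a TARP; Entrez 140723, chromosome 11, 107735919 to 107776369) rose in all 4 combinations from near the limit of detection. It had 9.82 and 2.33 normalized counts without Dox and 119 and 34.3 with Dox in iG+A cells, 1.06 and 2.83 without Dox and 129 and 84.2 with Dox in iG+P cells and 8.22 and 6.14 without Dox and 205 and 196 with Dox in iGPA cells. Untreated libraries of all lines held 1.02 to 9.82, and the groups did not overlap in any combination. The log2 fold changes were 3.44 (standard error 0.62, adjusted p = 2.63e-04) in iG+A, 5.23 (standard error 0.62, adjusted p = 3.46e-06) in iG+P, 3.98 (standard error 0.62, adjusted p = 1.22e-04) in iP+A and 4.63 (standard error 0.62, adjusted p = 8.34e-06) in iGPA cells, and the single factors gave 1.18, 1.18 and 1.74 without passing. The iG+A value was 2.56 or 4.32 with Dox replicate 1 or 2 left out, and 4.29 or 2.59 with No Dox replicate 1 or 2 left out. With a pseudocount of 5 the values were 2.74 for iG+A, 3.99 for iG+P, 3.12 for iP+A and 4.08 for iGPA cells.

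Its neighbour Cacng4 (γ4, a TARP; Entrez 54377, chromosome 11, 107593671 to 107655871) rose in the 3 combinations with Pou4f3. It had 25.5 and 20.04 normalized counts without Dox and 97.1 and 60.7 with Dox in iG+P cells, 15.3 and 28.5 without Dox and 126 and 105 with Dox in iP+A cells and 11.4 and 13.8 without Dox and 152 and 143 with Dox in iGPA cells. The Dox libraries stood apart in all 3 lines, with log2 fold changes of 1.72 (standard error 0.46, adjusted p = 0.00715), 2.40 (standard error 0.46, adjusted p = 8.53e-04) and 3.46 (standard error 0.46, adjusted p = 7.70e-06). The first of these calls was lost without iG+P Dox replicate 1 (1.39) or without iG+P No Dox replicate 2 (1.55). In iG+A cells, the combination without Pou4f3, Cacng4 had 26.7 and 11.2 without Dox and 6.39 and 13.4 with Dox (−0.83), and Pou4f3 added to that pair changed the Dox effect by 4.29 (standard error 0.65, adjusted p = 5.71e-04), a value of 3.70 or 4.88 with iG+A No Dox replicate 1 or 2 left out. Pou4f3 alone gave 0.31.

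Cacng6 (γ6, a muscle-type subunit; Entrez 54378, chromosome 7, 3425423 to 3435658) rose in iGPA and iG+A cells. In iGPA cells it had 3.5 and 0 normalized counts without Dox and 100.3 and 68.6 with Dox, and its log2 fold change of 5.31 (standard error 0.60, adjusted p = 1.18e-06) ran from 3.76 to 6.39 over the alternatives, with 1 control library at 0. In iG+A cells it went from 4.64 and 11.2 to 31.9 and 26.8 (log2 fold change 1.87, standard error 0.60, adjusted p = 0.0189), a call lost in a fit of its own groups alone (1.87), with a pseudocount of 0.5 (1.94), with a pseudocount of 5 (1.46), without iG+A Dox replicate 1 (1.75) or 2 (1.99) or without iG+A No Dox replicate 1 (1.31). The Dox effect in iGPA cells exceeded those in iG+A, iG+P and iP+A cells by 3.44, 5.99 and 4.78 (adjusted p = 0.0256, 1.40e-04 and 8.12e-04). The first of these was lost in a fit of its own groups alone (3.44), without iG+A Dox replicate 2 (3.32), without iG+A No Dox replicate 2 (2.88), without iGPA Dox replicate 1 (3.17) or 2 (3.71) or without iGPA No Dox replicate 2 (2.36). Without iGPA No Dox replicate 1 or 2 the other 2 differences were 7.07 or 4.90 from iG+P and 5.86 or 3.70 from iP+A cells. With a pseudocount of 5 the 3 differences were 2.30, 4.14 and 3.34, and each passed. The adjacent TARP genes did not follow it: Cacng7 (γ7) gave −0.01 and Cacng8 (γ8) 0.30 in iGPA cells.

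Cacng8 fell in iG+P cells, from 70.5 and 54.1 to 18.6 and 18.4 normalized counts (log2 fold change −1.68, standard error 0.39, adjusted p = 0.00237), a call lost without iG+P No Dox replicate 1 (−1.497). Cacng2 (γ2 or stargazin, the first TARP known) fell there from 5.11 and 6.01 to 1.96 and 0 (log2 fold change −1.93, standard error 0.63, adjusted p = 0.0239), and this call, at counts near 0, was lost in a fit of its own groups alone (−1.93), with a pseudocount of 5 (−0.84), without iG+P Dox replicate 2 (−1.14) or without iG+P No Dox replicate 1 (−2.03) or 2 (−1.83), with values of −2.71 to −0.84 over the alternatives. Cacng7 passed in no line (−1.14 to 0.71) and was the most abundant γ gene per kb in 14 of 14 untreated libraries. Cacng1 (−0.79 to 2.01) and Cacng3 (γ3, a TARP, −0.84 to 1.01) passed in no line either, although the Cacng1 value in iG+A cells (2.01) passed without iG+A No Dox replicate 1 (3.69), and Cacng1 was listed at 0 in 3 untreated and 1 Dox library.

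The 9 pairs of lines that differ by 1 factor were compared by the difference of their Dox effects. Adding Gfi1 changed the Dox effect on 6 of 37 genes when added to Atoh1 (6.87% of all genes), 6 when added to Pou4f3 (7.63%) and 7 when added to both (7.60%). Among all genes called in that last comparison the share of higher values was 62.7%, and 51.5% after quantile normalization. Adding Atoh1 changed it for 7 genes beside Gfi1 (8.54%), 1 beside Pou4f3 (1.61%) and 7 beside both (5.90%). Adding Pou4f3 did so for 4 genes beside Atoh1 (2.78%), 1 beside Gfi1 (1.85%) and 3 beside both (2.20%). With the replicate number as a block the count for iP+A against iAtoh1 was 7 (3.42% of all genes), with −2.09 (adjusted p = 0.0331) for Scn4a, 5.49 (adjusted p = 0.0342) for Scn9a and 2.81 (adjusted p = 0.0356) for Cacng5 added.

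Adding Gfi1 passed in all 3 comparisons for Cacna2d1 and Scn4b, and in 2 for Cacna1h, of which the value beside Pou4f3 (1.55) was lost without iG+P Dox replicate 2 (1.49) or without iG+P No Dox replicate 1 (1.48). Adding Atoh1 passed in all 3 for Cacna1b, at 1.80, 2.08 and 3.30, and in 2 for Cacna2d2, Cacng6 and Scn4a. The first Cacna1b value was lost without iG+A No Dox replicate 1 (1.48), and the next in a fit of its own groups alone (2.08), without iP+A Dox replicate 1 (1.89), without iP+A No Dox replicate 1 (1.54), without iPou4f3 Dox replicate 1 (1.97) or without iPou4f3 No Dox replicate 1 (2.07) or 2 (2.09). Beside Gfi1, the difference for Cacna2d2 (1.58) was lost without iG+A Dox replicate 1 (1.44), without iGfi1 Dox replicate 1 (1.44) or without iGfi1 No Dox replicate 2 (1.48), and that for Cacng6 (2.95) without iG+A No Dox replicate 1 (2.40), without iGfi1 Dox replicate 1 (2.76) or without iGfi1 No Dox replicate 1 (2.88). Adding Pou4f3 passed in 2 of 3 for Cacng4 and in no more than 1 for any other gene, and the Cacng4 value beside Atoh1 (2.69) was lost in a fit of its own groups alone (2.69), without iAtoh1 Dox replicate 2 (2.21), without iAtoh1 No Dox replicate 1 (2.67), without iP+A Dox replicate 1 (2.56) or without iP+A No Dox replicate 1 (2.26). Pairs that share a line share its libraries, so these values are not independent of each other.

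Partner proteins of both channel families were described beside them. Of 14 sodium channel partners, 1, 0, 1, 5, 1, 4 and 5 rose in iAtoh1, iGfi1, iPou4f3, iG+A, iG+P, iP+A and iGPA cells. In iGPA cells these were led by Nfasc (6.93), an organiser of axon initial segments, Unc80 (5.92), a subunit of the NALCN leak channel, Fgf11 (3.63), an intracellular FGF, and Nrcam (2.98), an adhesion molecule of nodes. The list's median ranged from 0.40 in iPou4f3 to 0.90 in iG+A cells, beside medians near 0 for all genes. Of all genes tested, 2.89%, 2.15%, 1.47%, 7.35%, 5.16%, 4.7% and 8.65% rose in the same order of lines.

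Of 18 calcium channel partners tested (19 listed), 0, 0, 2, 4, 4, 8 and 7 rose in the same order of lines, and 2, 1, 0, 2, 1, 0 and 1 fell. Of all genes tested, 2.52%, 2.67%, 0.606%, 4.95%, 5.36%, 2.58% and 5.31% fell in these lines. Cabp2 (6.96) and Cabp1 (3.87), calmodulin-like proteins that modulate calcium channels, Rimbp2 (6.22), which tethers channels at release sites, and Pclo (3.51), an active zone scaffold, rose most in iGPA cells. Cabp2, known from hair cells, also rose in iG+A (2.07), iG+P (6.03) and iP+A cells (4.29). In iGfi1 cells 1 partner changed, Rem1, a small GTPase that inhibits calcium channels, which fell (−3.03).

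Marker lists gave the setting of these values. The shares of all genes that rose or fell, given with the partners, apply to each marker count here and above. Of 11 sensory neuron markers tested, 4, 0, 0, 6, 3, 5 and 7 rose in iAtoh1, iGfi1, iPou4f3, iG+A, iG+P, iP+A and iGPA cells, and 1 fell in iAtoh1 and in iG+A cells. Of 11 hair cell markers tested, 0, 0, 2, 4, 5, 4 and 5 rose, with Lhx3 at 7.76 in iGPA and Slc17a8 at 6.95 in iG+P cells. The sensory list summed to 1487 to 2627 normalized counts without Dox and 2082 to 16558 with it, and the hair cell list to 14712 to 72500 and 22301 to 78509. The hair cell sum did not always follow the number of its markers that rose. In iG+A cells, where 4 rose, it was 72500 and 33183 without Dox and 45146 and 32957 with it. In iG+P cells, where 5 rose, it was 56763 and 29577 against 68799 and 78509. The untreated iGPA libraries held 14712 and 41119. Of 6 glial markers 2, 2, 0, 1, 2, 1 and 2 rose and 1 fell, in iGfi1 cells. Blood markers fell in 5, 0, 0, 5, 1, 5 and 4 of 8 cases, endothelial markers in 2, 0, 0, 0, 2, 1 and 1 of 6, and pluripotency markers in 0, 0, 0, 4, 1, 5 and 3 of 8, and none of these 3 lists held a gene that rose. The part of these cell types in the channel values was not tested.

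Several channel genes lie side by side in NCBIM37, and neighbours did not move together throughout. On chromosome 9 Scn10a and Scn11a lie 59.4 kb apart, and Scn10a rose in iG+A and iGPA cells while Scn11a passed as higher in no line. Scn4b lies 8.37 kb from Scn2b, which passed in no line. On chromosome 11 Cacng4 and Cacng5 are 80.0 kb apart and both rose in iG+P, iP+A and iGPA cells, whereas in iG+A cells Cacng5 rose and Cacng4 gave −0.83. Cacng1 lies 15.8 kb from Cacng4 and passed in no line with all libraries in the fit. On chromosome 2 Scn9a lies between Scn1a and Scn7a at 39.2 and 38.5 kb, and only Scn9a of these rose in iP+A cells. On chromosome 7 Cacng6 lies 10.1 kb from Cacng8, which gave 0.30 in iGPA cells.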

How the data were processed

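The authors made mRNA libraries with a KAPA kit from 1 µg of total RNA each. The Illumina HiSeq reads were, by the authors, trimmed with cutadapt, quantified with Kallisto at default settings against the UCSC knownGene transcripts of mm9, summed per gene with tximport and normalized with DESeq2. The deposited values are log2(normalized count + 1) per Entrez gene, up to 18.52, and were turned back into normalized counts. Versions of these tools are not given in the sources used here. Close paralogues and overlapping genes can share reads in such counting, and strand was not used by default.

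Of 19421 genes, 19314 could be named, and the 16837 that reached 10 normalized counts in 2 or more libraries were tested. All 14 groups entered a single limma fit (limma 3.58.1, R 4.3.3) of log2(normalized count + 1), with 14 degrees of freedom left over, and p-values were adjusted by Benjamini and Hochberg's method over all genes within each comparison. A call needed an adjusted p under 0.05 and a log2 fold change past 1.5 in either direction. No count test was run, because whole reads could not be recovered from the values. Fold changes on this scale understate changes of low genes. Per the series record the 2 replicates of a line are different clones, and p-values rest on the spread between the 2 libraries of a group, pooled over all 14 groups. Libraries with the same replicate number within a line deviated together in each of the 7 lines (correlations of 0.103 to 0.246, not set beside those between lines). For that reason the numbers were taken to pair libraries in an alternative fit, whereas the main fit held no pairing term. The record does not say that a number names the same clone with and without Dox. A fit with the replicate number as a block was an alternative. The other alternatives were pseudocounts of 0.5 and 5 in place of 1, no filter, quantile normalization, a fit of the compared groups alone and leaving out each library in turn.

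The channel genes and the lists of partners and markers were chosen with earlier results of these data known. Of the genes whose symbols match the rule, 3 are not reported here. Every other channel gene is named, with library values for those called in at least 1 line, and from each list at most 4 genes called in the line described, by size. Coordinates of genes are NCBIM37 from GENCODE M1, lengths are summed exons, and promoters are RefSeq, GRCm38.p6. Summaries used Python 3.11.15, pandas 2.3.3, numpy 2.4.6 and matplotlib 3.10.9.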

Additional observations from a re-analysis of the deposited data

Results flagged for a closer look

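The Dox effect on 17 of the 37 channel genes differed between lines that differ by 1 factor, in 42 of 333 tests (12.6%, limma, adjusted p under 0.05 and a difference of at least 1.5 on the log2 scale). Each value below is the log2 fold change of the first line minus that of the other, and each was noted because the 2 lines' responses differed in that test. A range in parentheses is that over the alternatives, given where at least 1 of them moved the difference by more than 1.5-fold. Over all 16837 genes, 21.7% differed in at least 1 of the 9 pairs, beside 45.9% of the channel genes, and 5.00% of the tests passed.

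Between iG+A and iAtoh1 cells the difference was 4.56 for Scn4b (3.89 to 5.23), 3.02 for Cacna1b, 2.58 for Cacna2d2, 1.89 for Cacna1h, 1.51 for Cacna1c and −1.89 for Cacna2d1. That of Cacna1c was lost in a fit of its own groups alone (1.51), after quantile normalization (1.42), without iAtoh1 Dox replicate 1 (1.33), without iAtoh1 No Dox replicate 2 (1.31), without iG+A Dox replicate 1 (1.16) or without iG+A No Dox replicate 1 (1.47).

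Between iG+P and iPou4f3 cells the difference was 3.62 for Scn4b, 3.48 for Cacng5 (2.85 to 3.94), 1.55 for Cacna1h, 1.52 for Scn7a, −1.61 for Cacnb3 and −3.25 for Cacna2d1. That of Cacng5 was lost without iG+P No Dox replicate 1 (3.04) or without iPou4f3 Dox replicate 1 (3.03). That of Scn7a was lost after quantile normalization (1.47), without iG+P Dox replicate 2 (1.29), without iG+P No Dox replicate 2 (1.49), without iPou4f3 Dox replicate 1 (1.48) or without iPou4f3 No Dox replicate 2 (1.44).

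Between iGPA and iP+A cells the difference was 4.78 for Cacng6 (3.34 to 5.86), 3.81 for Scn10a (2.98 to 4.49), 2.94 for Scn4a (1.92 to 3.95), 2.83 for Cacna1i (1.86 to 3.797), 2.17 for Scn4b (1.54 to 2.79), −3.05 for Cacna2d1 and −5.06 for Scn3a (−5.23 to −4.15). That of Scn4a was lost in a fit of its own groups alone (2.94). That of Cacna1i was lost in a fit of its own groups alone (2.83), without iGPA No Dox replicate 2 (2.75), without iP+A Dox replicate 2 (2.44) or without iP+A No Dox replicate 1 (1.86). Without iGPA No Dox replicate 1 or 2 the Scn4a difference was 3.95 or 1.92.

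Between iG+A and iGfi1 cells the difference was 4.48 for Scn4a, 2.95 for Cacng6 (2.12 to 3.51), 2.07 for Cacna1g, 1.98 for Cacna1c, 1.80 for Cacna1h, 1.80 for Cacna1b and 1.58 for Cacna2d2.

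Between iP+A and iPou4f3 cells the difference was 2.08 for Cacna1b.

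Between iGPA and iG+P cells the difference was 5.99 for Cacng6 (4.14 to 7.07), 3.85 for Scn4a (2.84 to 4.86), 3.30 for Cacna1b, 2.64 for Cacna1i, 1.99 for Cacng8, 1.51 for Cacna2d2 and −2.45 for Scn4b (−3.08 to −1.83). That of Cacna1i was lost without iG+P Dox replicate 2 (2.16), without iG+P No Dox replicate 1 (2.60) or 2 (2.68), without iGPA Dox replicate 1 (2.65) or 2 (2.63) or without iGPA No Dox replicate 1 (2.72) or 2 (2.56). That of Cacng8 was lost after quantile normalization (1.64), without iG+P Dox replicate 2 (1.98), without iG+P No Dox replicate 1 (1.80), without iGPA Dox replicate 2 (1.81) or without iGPA No Dox replicate 1 (1.66).

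Between iP+A and iAtoh1 cells the difference was 2.96 for Cacna1b, 2.69 for Cacng4, 2.60 for Cacna2d2 and −1.85 for Cacna1g. That of Cacna1g was lost in a fit of its own groups alone (−1.85) or without iP+A No Dox replicate 1 (−1.43).

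Between iG+P and iGfi1 cells the difference was 4.05 for Cacng5 (3.19 to 4.49). That of Cacng5 was lost without iG+P Dox replicate 1 (3.74), without iG+P No Dox replicate 1 (3.60), without iGfi1 Dox replicate 2 (3.71) or without iGfi1 No Dox replicate 2 (3.86).

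Between iGPA and iG+A cells the difference was 4.29 for Cacng4 (3.70 to 4.88), 3.44 for Cacng6 (2.30 to 4.52) and −2.33 for Cacna1c.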

How the results depend on the processing

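No call changed direction under any alternative run. Of the 91 calls on channel genes (49 of Dox against No Dox, 42 of differences), 52 were kept under all alternatives, 39 were lost under at least 1, and 21 of these were lost only when a library was left out. Conversely 18 values of Dox against No Dox and 30 differences that had not passed did so under at least 1 alternative, 13 and 17 of them only when a library was left out. With only the compared groups in the fit, 0 genes rose in iPou4f3 cells (0.695% of all genes), 3 fell in iGPA cells (4.93%), 0 differed between iP+A and iPou4f3 cells (1.03%) and 4 between iGPA and iP+A cells (6.85%). With quantile normalization 2 fell in iG+A (5.73%) and 3 in iGPA cells (6.44%). With a pseudocount of 5, the genes that differed numbered 7 between iP+A and iAtoh1 (3.11%), 2 between iG+P and iGfi1 (2.03%), and 2 between iP+A and iPou4f3 cells (1.97%). With the replicate number as a block, 3 genes fell in iGPA cells (5.47%) and 7 differed between iP+A and iAtoh1 cells (3.42%). In that fit Cacng5 also differed between iG+A and iAtoh1 cells (2.26, adjusted p = 0.0460) and between iG+A and iGfi1 cells (2.26, adjusted p = 0.0331), and beside the values given with the results it changed no other call. Leaving out 1 library at a time, the number of genes that rose in iGfi1 cells was 1 to 2. The number that fell was 0 to 1 in iAtoh1, 1 to 2 in iGfi1, 1 to 2 in iG+A, 1 to 4 in iG+P, 0 to 1 in iP+A and 1 to 2 in iGPA cells. The number that differed was 2 to 7 between iP+A and iAtoh1, 0 to 1 between iG+P and iGfi1, 3 to 7 between iG+P and iPou4f3, 0 to 1 between iP+A and iPou4f3, and 4 to 8 between iGPA and iG+P cells. Not every changed count is listed. In iP+A cells fewer genes rose without iP+A Dox replicate 1, where Scn3a (2.97), Scn4a (1.72) and Scn9a (3.67) were lost. The same genes were lost without iP+A No Dox replicate 2 (2.87, 1.70 and 2.91). In iG+P cells fewer rose without iG+P Dox replicate 1, where Cacna1i (1.22) and Cacng4 (1.39) were lost. Losses and gains in other lines are given with the results. Shares of all genes in these fits also varied and are not given. The cause of these changes was not tested. With 2 libraries per group, genes at a few normalized counts, such as Cacna1f, Cacng2, Cacng5, Cacng6, Scn9a and Scn10a, have wide errors.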
